A study of Mus musculus with 16 samples.

Results

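Complement is the arm of innate immunity in which plasma and tissue proteins tag, open or clear targets, and 9 of its genes were followed here by symbol in a count table of mouse brain RNA. The set was C1qa, C1qb and C1qc (the 3 chains of the recognition molecule C1q), C1ra (a serine protease of the C1 complex), C4b and C3 (the central components), Serping1 (the C1 inhibitor), and C3ar1 and C5ar1 (the receptors for the fragments C3a and C5a). The table held 54532 entries, all 9 genes were among them, and all 9 passed the filter on low counts that left 17736 genes for testing. C5ar1 was the scarcest of the 9, with a mean of 18 counts per library, and C4b the most abundant, with 1247 counts.

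The libraries came from female mice of 9 months of age and formed 4 groups of 4, which combine Ch25h genotype with tau status. Ch25h+/+ Tau- mice had the intact Ch25h gene and were labelled tau-negative. Ch25h+/+ Tau+ mice had the intact gene and were labelled tau-positive, Ch25h-/- Tau- mice were labelled as lacking Ch25h, and Ch25h-/- Tau+ mice combined both. Ch25h encodes cholesterol 25-hydroxylase, which makes the oxysterol 25-hydroxycholesterol. The labels do not name the tau transgene, its promoter, the strain or whether the animals were littermates, and they give frontal cortex as the tissue where the text of the series gives hippocampus. Marker lists did not settle that difference, since cortical markers summed to 605 to 836 CPM (counts scaled to a common library total) and hippocampal markers to 113 to 234 CPM over the libraries.

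In the brain, C1q is made mostly by microglia, C4 and C3 by glia and by cells of the vessels and membranes, and the anaphylatoxin receptors mainly by myeloid cells. Bound C1q activates C1r and C1s, which cut C4 and C2. The resulting enzyme cuts C3, whose large fragment coats the target and whose small fragment signals through C3ar1. In the developing and diseased brain this cascade is known for marking synapses for removal by microglia.

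Depth was 15530352 to 25602500 counts per library. Ch25h had 5 to 30 counts in each of the 8 Ch25h+/+ libraries and 0 counts in each of the 8 Ch25h-/- libraries. Prnp, the gene whose promoter drives several widely used tau transgenes, stood at 708 to 839 CPM in Tau- and 1414 to 1935 CPM in Tau+ libraries, with no overlap. A ribosomal RNA entry, CT010467.1, divided the libraries into 2 classes that nearly follow the genotype. It reached 2289 to 5684 CPM of the total counts in 7 of the 8 Ch25h-/- libraries, called rRNA-rich below, and 111 to 475 CPM in the 8 Ch25h+/+ libraries and Ch25h-/- Tau+ replicate 1, called rRNA-poor. In Tau- mice, library class and Ch25h genotype therefore cannot be told apart. In bulk tissue, fewer cells of a type and less RNA per cell cannot be told apart either.

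The 3 C1q genes lie side by side on the minus strand of chromosome 4 in build GRCm38, C1qa at chr4:136895917-136898803, C1qc at chr4:136889804-136893065 and C1qb at chr4:136880129-136886187. C4b (chr17:34728380-34743882, minus strand) and C3 (chr17:57203970-57228136, minus strand) share a chromosome but are far apart. The RefSeq promoter table (GRCm38.p6) held 6 of the 9 genes, with 250 bases before and 50 bases after each start. Stretches of the promoters of C1qb and C1qc are shown because these neighbours had the most alike profiles of the set, and of C3 because its fold changes were the largest. Positions count from the RefSeq start, each stretch reads 5′ to 3′ on the gene's strand, and capitals mark a motif match. C1qb, chr4:136886201-136886300, minus strand, positions -100 to -1, capitals the PU.1 core.
C1qb: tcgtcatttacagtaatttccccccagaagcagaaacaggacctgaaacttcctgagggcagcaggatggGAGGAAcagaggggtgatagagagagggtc
C1qc, chr4:136893066-136893164, minus strand, positions -250 to -152, capitals the PU.1 core on the opposite strand.
C1qc: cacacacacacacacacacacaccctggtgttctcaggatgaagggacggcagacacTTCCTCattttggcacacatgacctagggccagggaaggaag
C3, chr17:57228137-57228236, minus strand, positions -100 to -1, capitals the C/EBP core.
C3: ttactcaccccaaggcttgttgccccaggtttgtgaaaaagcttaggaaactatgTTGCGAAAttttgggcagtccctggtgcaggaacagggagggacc

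The motifs were searched on both strands of each promoter. The PU.1 core GAGGAA, a motif of the myeloid factor PU.1, was in the promoters of C1qb, C1qc and C1ra and in 28.28% of all 32851 promoters in the table. The C/EBP core TTGCNNAA was in those of C3 and C1ra, against 10.8% of all promoters. The interferon-related ISRE core GAAANNGAA was in that of C5ar1 (8.56% of all), and the GAS motif TTCNNNGAA in that of C1ra (8.3% of all). The kappaB core GGANNTTCC was in none of the 6 (4.26% of all), and the C3ar1 window held none of the 5 motifs. These are matches of letters and not sites shown to be bound.

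The first question was which complement genes differed with tau status in mice with Ch25h. In Ch25h+/+ mice, 7 of the 9 genes rose with tau, and the same 7 had no overlap between the 4 Tau+ and the 4 Tau- libraries. Over all genes tested, 1.56% passed the threshold in this comparison (an adjusted p under 0.05 in edgeR's quasi-likelihood test), 1.47% passed it as higher, and 5.86% had no overlap between the groups. The 277 genes that passed became 159 when replicate 4 of Ch25h+/+ Tau+ was left out. The median log2 fold change was 1.21 for the 9 genes and -0.01 for all genes tested. All 8 libraries of this comparison were rRNA-poor.

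All 3 C1q chains rose in Ch25h+/+ Tau+ mice. C1qa was at 46.3, 40.1, 43.8 and 53.2 CPM in the 4 Ch25h+/+ Tau- libraries and at 124, 99.96, 97.2 and 146 CPM in the 4 Ch25h+/+ Tau+ libraries. The lowest Tau+ library thus lay well above the highest Tau- library, and C1qa rose 2.55-fold (log2 1.35, SE 0.14, adjusted p = 2.72e-05). C1qb went from 32.7, 40.0, 35.2 and 31.8 CPM to 69.0, 79.5, 74.3 and 81.1 CPM, a rise of 2.18-fold (log2 1.12, SE 0.13, adjusted p = 7.68e-05). Its 4 Tau+ libraries lay close together, with a mean of 76.0 ± 5.48 CPM (SD, n = 4). C1qc went from 34.0, 35.1, 31.9 and 30.6 CPM to 62.8, 65.6, 61.4 and 84.4 CPM and rose 2.08-fold (log2 1.06, SE 0.14, adjusted p = 0.000253). Replicate 4 was the highest Tau+ library for each of the 3 chains.

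C1ra did not follow them. It stood at 4.81 ± 0.952 CPM (SD, n = 4) in Ch25h+/+ Tau- and 5.58 ± 0.805 CPM in Ch25h+/+ Tau+ libraries, with overlapping groups (log2 0.22, SE 0.21, adjusted p = 0.892). Its 95% interval, -0.23 to 0.66 on the log2 scale, lies below the change of each C1q chain. The C1ra value was 0.0935 when replicate 1 of Ch25h+/+ Tau- was left out and 0.12 when replicate 3 of Ch25h+/+ Tau+ was.

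C4b and C3 had the largest fold changes of the set. C4b was at 26.7, 33.4, 27.9 and 20.3 CPM in Ch25h+/+ Tau- and at 109, 116, 168 and 217 CPM in Ch25h+/+ Tau+ libraries. That is a rise of 5.65-fold (log2 2.50, SE 0.26, adjusted p = 2.72e-05). C3 was near the limit of detection without tau, at 0.508, 0.164, 0.820 and 0.101 CPM or 2 to 19 counts. With tau it was at 1.36, 3.20, 7.58 and 27.5 CPM, or 22 to 589 counts. The groups did not overlap, but the Tau+ libraries spread widely around their mean of 9.91 ± 12 CPM (SD, n = 4). The log2 fold change of C3 was 4.56 (SE 0.75, adjusted p = 0.00209), and it was 3.29 without Ch25h+/+ Tau+ replicate 4, still past the threshold.

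Serping1, the inhibitor of C1r and C1s, was at 6.01, 9.19, 7.64 and 5.49 CPM in Ch25h+/+ Tau- libraries and at 18.7, 13.5, 11.1 and 22.4 CPM in Ch25h+/+ Tau+ libraries. It rose 2.32-fold (log2 1.21, SE 0.26, adjusted p = 0.0179). This was the least firm of the 7 rises. The adjusted p was 0.0774 or 0.0804 when replicate 1 or 4 of Ch25h+/+ Tau- was left out, and 0.0992 when replicate 4 of Ch25h+/+ Tau+ was. The summed level of markers of fibroblasts, cells of the meninges and vessels, was also higher with tau, by a narrow gap. It was 83.7 to 129 CPM in Ch25h+/+ Tau- and 130 to 173 CPM in Ch25h+/+ Tau+ libraries. Pdgfra, at 43.1 to 65.8 CPM over all libraries, made up a large part of that sum and is not particular to fibroblasts. All 6 fibroblast markers were detected in every library, and none of the 6 passed the threshold in edgeR. An unadjusted p under 0.05 was found for 2 of them, beside 9.38% of all genes tested. The part of these markers in the Serping1 result was not tested.

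Of the receptors, C3ar1 rose and C5ar1 did not pass. C3ar1 was at 1.43, 1.91, 1.60 and 2.12 CPM in Ch25h+/+ Tau- and at 4.07, 5.81, 6.55 and 9.10 CPM in Ch25h+/+ Tau+ libraries, a rise of 3.63-fold (log2 1.86, SE 0.22, adjusted p = 8.08e-05). C5ar1 was at 0.997 ± 0.272 CPM and 1.45 ± 0.633 CPM (SD, n = 4 each), and 2 of the 4 Tau+ libraries lay within the Tau- range (log2 0.55, SE 0.42, adjusted p = 0.826). Its value was 0.27 when replicate 3 of Ch25h+/+ Tau+, the highest library, was left out. Within the Ch25h+/+ Tau+ group, C4b, C3 and C3ar1 ranked the 4 libraries alike, with replicate 4 highest, then replicates 3, 2 and 1.

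**Figure D1:**
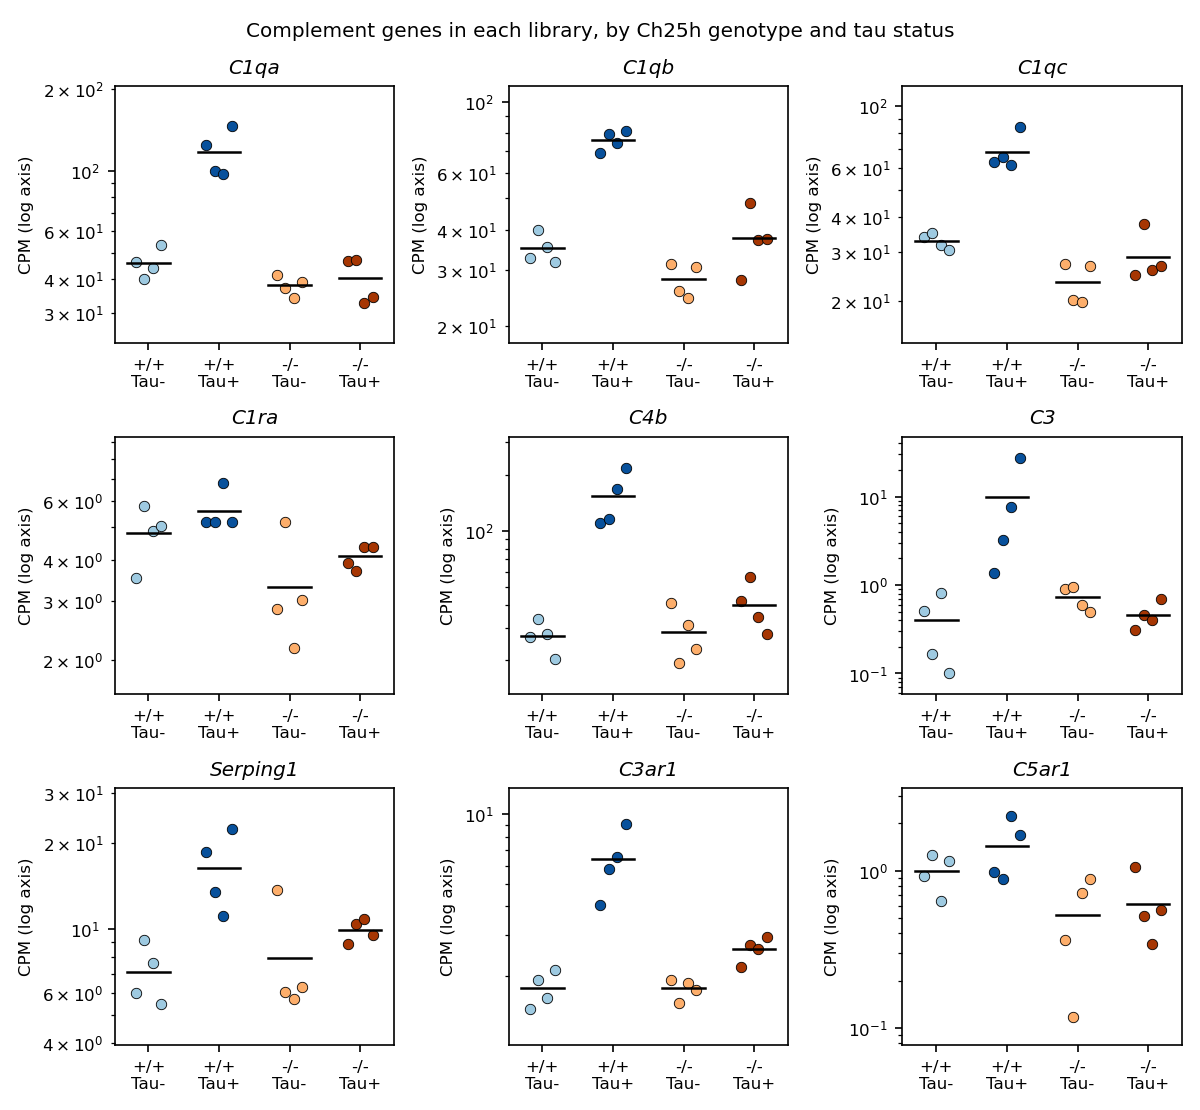
CPM (log axis) of the 9 complement genes in each of the 16 libraries, by Ch25h genotype and tau status; each point is a library and each line a group mean. The 4 Ch25h+/+ Tau+ libraries lie above all 4 Ch25h+/+ Tau- libraries for 7 genes, all but C1ra and C5ar1.

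In mice without Ch25h, the same comparison of tau status passed for none of the 9 genes. In edgeR, 0.0395% of all genes tested passed, and DESeq2 and limma-voom also called 0 of the 9. At an unadjusted p under 0.05 there were 2 of the 9, beside 3.68% of all genes tested. There were 5 of the 9 when replicate 1 of Ch25h-/- Tau- was left out, 4 when replicate 4 of Ch25h+/+ Tau+ was, and 2 or 3 when any other library was. The median log2 fold change was 0.31 for the 9 genes and 0.01 for all genes tested.

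C1qa was at 41.4, 37.2, 34.0 and 38.9 CPM in Ch25h-/- Tau- and at 46.7, 47.0, 32.6 and 34.5 CPM in Ch25h-/- Tau+ libraries. Its log2 difference of 0.09 (SE 0.14, adjusted p = 1.0 in edgeR) had a 95% interval of -0.21 to 0.38, which excludes the value of 1.35 seen with Ch25h. C1qb was at 31.3, 25.8, 24.5 and 30.6 CPM against 27.9, 48.3, 37.1 and 37.5 CPM, a log2 difference of 0.42 (SE 0.13, unadjusted p = 0.00494, adjusted p = 1.0). C1qc was at 27.2, 20.3, 19.8 and 26.8 CPM against 24.8, 37.8, 25.9 and 26.9 CPM, a log2 difference of 0.29 (SE 0.14, adjusted p = 1.0). The groups overlapped for all 3 chains, and the single rRNA-poor library, Ch25h-/- Tau+ replicate 1, was the lowest of its group for C1qb and C1qc. When replicate 2 of Ch25h-/- Tau+ was left out, the value was 0.28 for C1qb and 0.13 for C1qc. Over the fits that left out a library, C1qa ranged from 0.0041 without Ch25h-/- Tau+ replicate 1 to 0.17 without Ch25h-/- Tau+ replicate 3.

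C4b was at 40.5, 19.4, 30.9 and 23.0 CPM in Ch25h-/- Tau- and at 41.5, 56.3, 34.1 and 27.9 CPM in Ch25h-/- Tau+ libraries (log2 0.49, SE 0.25, adjusted p = 1.0), and its value was 0.28 when replicate 2 of Ch25h-/- Tau+, the highest library, was left out. C3 stayed at 0.313 to 0.941 CPM, or 7 to 16 counts, in all 8 libraries, and its log2 difference was -0.70 with an SE of 0.90, so that this depth leaves a wide interval of -2.59 to 1.19. C3ar1 was the only one of the 9 whose groups did not overlap, at 1.53 to 1.93 CPM without and 2.19 to 2.94 CPM with tau (log2 0.56, SE 0.23, unadjusted p = 0.0244, adjusted p = 1.0). Over all genes tested, 2.14% had no overlap in this comparison. Serping1 gave 0.32 (SE 0.26), C1ra 0.31 (SE 0.22) and C5ar1 0.28 (SE 0.50) on the log2 scale. Without Ch25h-/- Tau- replicate 1, where Serping1 was highest, its value was 0.72, and without replicate 2 of that group, where C1ra was highest, that of C1ra was 0.61. When replicate 3 of Ch25h-/- Tau- was left out, the values were 0.19 for Serping1 and 0.15 for C1ra. C5ar1 ranged from -0.16 without Ch25h-/- Tau+ replicate 1 to 0.68 without Ch25h-/- Tau- replicate 4, so its direction turned with the library left out.

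The second question was how the loss of Ch25h related to these genes within each tau status. Within Tau+ mice, 6 of the 9 genes fell with the loss of Ch25h. Over all genes tested, 3.55% passed and 2.4% passed as lower. The number passing, 629 in all, was 104 when replicate 4 of Ch25h+/+ Tau+ was left out and 1685 when replicate 1 of Ch25h-/- Tau+ was. The median log2 fold change was -1.25 for the 9 genes and 0.00 for all genes tested. This comparison shares the Ch25h+/+ Tau+ libraries with the tau comparison above, so high values there enter both.

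C1qa was 2.90-fold lower in Ch25h-/- Tau+ than in Ch25h+/+ Tau+ libraries (log2 -1.54, SE 0.14, adjusted p = 1.35e-05) and had the rank of 2 by p among all genes tested. C1qc was 2.38-fold lower (log2 -1.25, SE 0.14, adjusted p = 0.000115) and C1qb 2.02-fold lower (log2 -1.01, SE 0.13, adjusted p = 0.000432). C4b was 3.83-fold lower (log2 -1.94, SE 0.25, adjusted p = 0.000482). C3ar1 was 2.46-fold lower (log2 -1.30, SE 0.21, adjusted p = 0.00328). C3, at 0.313, 0.455, 0.398 and 0.687 CPM in the Ch25h-/- Tau+ libraries, gave a log2 fold change of -4.45 (SE 0.76, adjusted p = 0.00427), and of -3.15 without Ch25h+/+ Tau+ replicate 4, still past the threshold.

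The other 3 genes did not pass in edgeR with the filter on low counts. Serping1 was at 8.88, 10.5, 10.9 and 9.56 CPM in Ch25h-/- Tau+ libraries, all under the lowest Ch25h+/+ Tau+ library at 11.1 CPM (log2 -0.72, SE 0.26, adjusted p = 0.104). C1ra was at 3.91, 3.70, 4.38 and 4.37 CPM, against 5.17 to 6.79 CPM (log2 -0.45, SE 0.22, adjusted p = 0.214). C5ar1, at 1.06, 0.520, 0.341 and 0.562 CPM, overlapped with 0.883 to 2.23 CPM (log2 -1.17, SE 0.45, adjusted p = 0.125), and its value was -0.46 with library class as a covariate. Serping1 passed in DESeq2 (adjusted p = 0.0460, beside 8.42% of all genes) and in edgeR with no filter (adjusted p = 0.0343, beside 2.58%). C5ar1 passed in limma-voom (adjusted p = 0.0434, beside 10.6%). The groups did not overlap for 8 of the 9 genes, all but C5ar1, and for 10.2% of all genes tested.

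Library class moves with this comparison, since 3 of the 4 Ch25h-/- Tau+ libraries were rRNA-rich and the 4 Ch25h+/+ Tau+ libraries were not. The remaining Ch25h-/- Tau+ library, replicate 1, was rRNA-poor and lay under every Ch25h+/+ Tau+ library for the same 8 genes. With library class as a covariate, the log2 fold change was -1.32 for C1qa (adjusted p = 0.0490), -1.44 for C1qb (adjusted p = 0.00475) and -1.47 for C1qc (adjusted p = 0.0338), so the 3 C1q chains stayed past the threshold, beside 0.0564% of all genes. In that fit the comparison within Tau+ mice rests on the single rRNA-poor Ch25h-/- Tau+ library. C4b (-1.88, adjusted p = 0.306), C3 (-4.96, adjusted p = 0.581) and C3ar1 (-1.54, adjusted p = 0.291) did not, at values close to or beyond those without the covariate. Within the rRNA-poor libraries alone, Ch25h-/- Tau+ has 1 library and no spread of its own, and that library is assumed to vary like those of the other groups. Under that assumption the values were -1.32 for C1qa (adjusted p = 0.170), -1.44 for C1qb (adjusted p = 0.0290) and -1.47 for C1qc (adjusted p = 0.0437), and 3 genes passed over the whole table.

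Within Tau- mice, none of the 9 genes passed for the loss of Ch25h in edgeR with all 16 libraries and the filter on low counts, where 1.03% of all genes tested passed. At an unadjusted p under 0.05 there were 3 of the 9 (C1qb, C1qc and C1ra), beside 20.9% of all genes tested, and 1 of the 9 when replicate 3 of Ch25h-/- Tau- was left out. The number of genes past the adjusted threshold, 182 in all, was unstable here. It was 4 when replicate 1 or 2 of Ch25h+/+ Tau- was left out and 1295 when replicate 1 of Ch25h+/+ Tau+ was. With library class as a covariate it was 0, but the class term of that fit comes only from the Ch25h-/- Tau+ libraries. Without the covariate, the median log2 fold change was -0.28 for the 9 genes and 0.01 for all genes tested.

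C1qc was at 30.6 to 35.1 CPM in Ch25h+/+ and 19.8 to 27.2 CPM in Ch25h-/- libraries, without overlap (log2 -0.48, SE 0.14, adjusted p = 0.0809). It passed in DESeq2 and in limma-voom, which each called 1 of the 9 genes, beside 6.34% and 7.83% of all genes tested. In edgeR it also passed, as 1 of the 9, with no filter (beside 1.54% of all genes) and when the 8 Tau- libraries were fitted on their own (beside 6.21%). Its adjusted p in edgeR was 0.0494 without Ch25h+/+ Tau+ replicate 1. C1qb also had no overlap, at 31.8 to 40.0 CPM against 24.5 to 31.3 CPM (log2 -0.31, SE 0.13, adjusted p = 0.182), but 16.2% of all genes tested had none in this comparison. C1qa gave -0.28 (SE 0.14, adjusted p = 0.273) and C1ra -0.54 (SE 0.22, adjusted p = 0.172). C4b gave 0.07 (SE 0.25), C3ar1 0.00 (SE 0.23), Serping1 0.17 (SE 0.27), C3 0.82 (SE 0.89) and C5ar1 -0.90 (SE 0.48) on the log2 scale.

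These values moved with the processing. With library class as a covariate C1qb gave -0.87, C1qc -0.77, C4b 0.15 and C3 0.12, each at an adjusted p of 1.0. Library class matches genotype in Tau- mice. The class term of that fit therefore comes only from Ch25h-/- Tau+ replicate 1 against the rest of its group. Its values in Tau- mice rest on that single library of another group. The direction turned in that fit for C1qa (0.0221), Serping1 (-0.0473), C3ar1 (-0.33) and C5ar1 (0.25), also at an adjusted p of 1.0. With GC offsets C1qa was -0.0711 and C1qb -0.16. When replicate 2 of Ch25h-/- Tau- was left out, C1ra was -0.84 and C5ar1 -0.58. C3 was 1.45 or 0.51 when replicate 3 or 4 of Ch25h+/+ Tau- was left out. C4b and Serping1 turned to -0.15 and -0.23 when replicate 1 of Ch25h-/- Tau- was left out.

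The third question was whether the tau difference itself differed between Ch25h genotypes, which the interaction term tests. C1qa was the only one of the 9 genes to pass. Its tau difference was smaller by 1.26 on the log2 scale in Ch25h-/- than in Ch25h+/+ mice (interaction -1.26, SE 0.20, adjusted p = 0.0222, edgeR). Over all genes tested, 6 passed, which is 0.0338%, and C1qa had the rank of 4 by p among them. That number was 0 when replicate 3 or 4 of Ch25h-/- Tau+ was left out, 25 when replicate 1 of Ch25h+/+ Tau+ was left out, and 55 in DESeq2. The call was lost without Ch25h+/+ Tau- replicate 1, 2 or 3, Ch25h-/- Tau- replicate 1, or Ch25h-/- Tau+ replicate 3 or 4, where the adjusted p rose to at most 0.0817. With library class as a covariate the C1qa interaction was -1.34 (adjusted p = 0.0254), beside 0.0169% of all genes called. Library class varied only within the Ch25h-/- Tau+ group. For this term the covariate therefore amounts to leaving out the rRNA-poor library of that group, replicate 1, and is no separate check of library class. Leaving out Ch25h+/+ Tau+ replicate 1 let 4 of the 9 genes pass, and leaving out replicate 2 of either Ch25h-/- group let 2 pass.

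The interaction was negative for 8 of the 9 genes, with a median of -0.89 against 0.02 for all genes tested. C4b just missed the threshold, at -2.01 (SE 0.36, adjusted p = 0.0540) and rank 7, and was called in DESeq2, in limma-voom (which called 0.0338% of all genes) and in 3 of the 16 fits that left out a library. C3 gave -5.27 (SE 1.18, adjusted p = 0.143), C3ar1 -1.30 (SE 0.31, adjusted p = 0.211), C1qc -0.77 (SE 0.20, adjusted p = 0.288) and C1qb -0.70 (SE 0.18, adjusted p = 0.299). Serping1 (-0.89, SE 0.37), C5ar1 (-0.27, SE 0.66) and C1ra (0.09, SE 0.31) had an adjusted p of 1.0. The Serping1 interaction was -0.49 when replicate 1 of Ch25h-/- Tau- was left out. The direction turned for C5ar1, to 0.13 without Ch25h-/- Tau- replicate 4, and for C1ra, to -0.0634 without Ch25h-/- Tau- replicate 3. With no filter on low counts, 5 of the 9 genes passed (C1qa, C1qb, C1qc, C4b and C3), beside 0.168% of all genes, and DESeq2 called 3 (C1qa, C4b and C3), beside 0.31%. A tau difference that passed in one genotype and not in the other is therefore shown to differ for C1qa alone in edgeR with the filter on low counts.

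**Figure D2:**
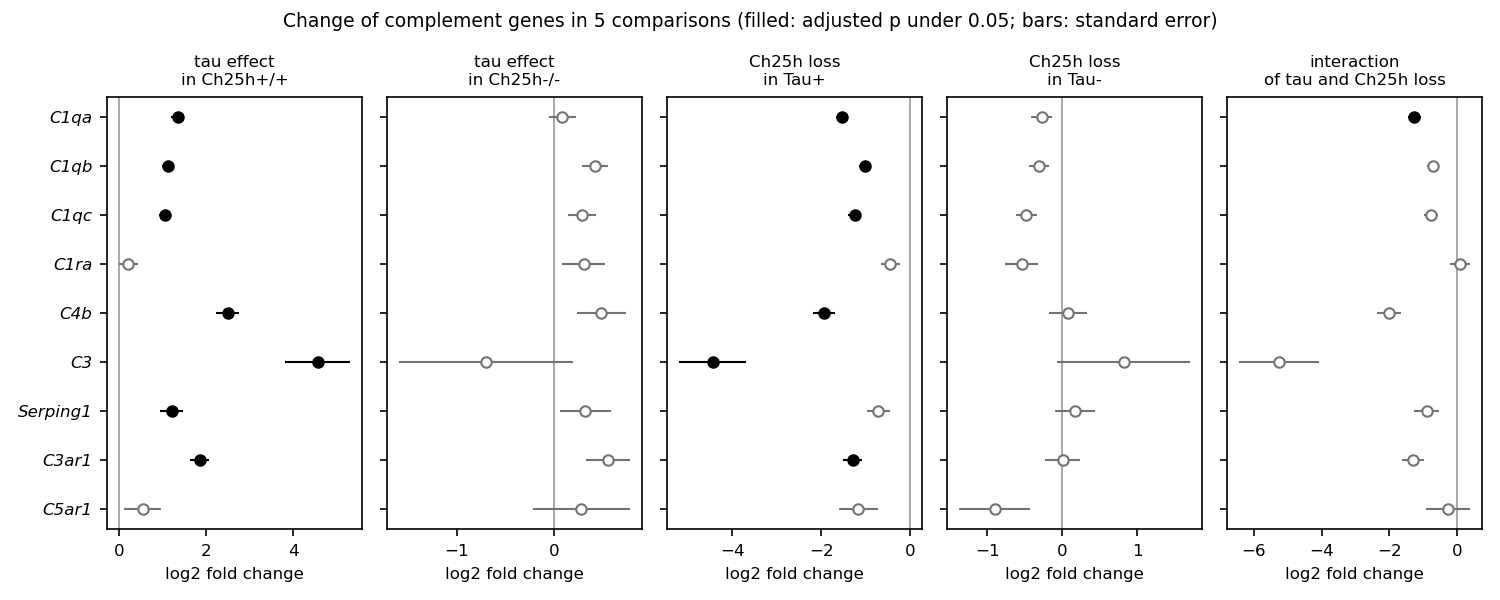
Log2 fold change of the 9 complement genes in 5 comparisons; points are edgeR estimates, bars are standard errors, filled points have an adjusted p under 0.05, and each panel has its own axis. Filled points number 7 for tau in Ch25h+/+, 0 for tau in Ch25h-/-, 6 for Ch25h loss in Tau+, 0 for Ch25h loss in Tau- and 1 for the interaction.

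Compared per length of the merged exons, the levels of the set covered a wide range. In Ch25h+/+ Tau- libraries C1qa had a level of 44.1 CPM per kilobase, C1qb 32.1 and C1qc 17.0 CPM per kilobase. C4b followed at 4.75, Serping1 at 3.05 and C1ra at 1.61 CPM per kilobase. C3ar1 at 0.410, C5ar1 at 0.388 and C3 at 0.0774 CPM per kilobase were the scarcest. In Ch25h+/+ Tau+ libraries C4b reached 26.8 and C3 1.93 CPM per kilobase, so that C3 lay above C1ra (1.87), C3ar1 (1.48) and C5ar1 (0.562) there. Its 4 libraries spread too widely to order C3 against C1ra, C3ar1 or C5ar1.

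The C1q molecule contains equal numbers of its 3 chains, so the ratios between the chains were compared in each library. The log2 ratio of C1qb to C1qa was -0.39 ± 0.31 (SD, n = 4) in Ch25h+/+ Tau-, -0.60 ± 0.28 in Ch25h+/+ Tau+, -0.43 ± 0.08 in Ch25h-/- Tau- and -0.10 ± 0.43 in Ch25h-/- Tau+ libraries. The ratio of C1qc to C1qa was -0.47 ± 0.25, -0.76 ± 0.16, -0.69 ± 0.15 and -0.47 ± 0.29 in the same order. No difference in these ratios between groups passed an exact two-sided permutation test, with p from 0.0857 to 0.771. In the Ch25h-/- Tau+ group the ratios moved with library class. C1qb to C1qa was -0.73 in the rRNA-poor replicate 1 and 0.04 to 0.18 in the 3 rRNA-rich libraries, and C1qc to C1qa was -0.90 against -0.35 to -0.31. The rRNA-rich Ch25h-/- Tau- libraries lay between these, at -0.52 to -0.34 for C1qb to C1qa, and the part of library class in the ratios was not tested. With that rRNA-poor library left out, 3 differences reached the smallest exact permutation p of 0.0286 (adjusted p = 0.0686). These were C1qb to C1qa with tau in Ch25h-/- (0.55, against 0.33 with all libraries), C1qb to C1qa with Ch25h loss in Tau+ (0.71 against 0.50) and C1qc to C1qa with Ch25h loss in Tau+ (0.43 against 0.28). Without Ch25h+/+ Tau- replicate 4, C1qc to C1qa with tau in Ch25h+/+ also reached it (-0.40 against -0.29, adjusted p = 0.114, exact).

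C1qa was then set against microglia markers, since C1q comes mostly from these cells. The list held 8 markers, among them Tmem119, P2ry12, Cx3cr1 and Csf1r, and all 8 were detected in every library. Their summed level was 299 to 320 CPM in Ch25h+/+ Tau-, 371 to 474 CPM in Ch25h+/+ Tau+, 274 to 326 CPM in Ch25h-/- Tau- and 287 to 349 CPM in Ch25h-/- Tau+ libraries. With tau in Ch25h+/+ mice, 3 of the 8 markers rose past the threshold, beside 1.56% of all genes tested. Among them were Cx3cr1 by 0.51 and Csf1r by 0.50 on the log2 scale, and the median of the 8 was 0.37. Olfml3 went the other way (-0.43) without passing, and Tmem119 hardly moved (0.02). With the loss of Ch25h in Tau+ mice, 4 of the 8 fell past the threshold, beside 3.55% of all genes tested. Tmem119, Cx3cr1 and Csf1r were among them, and the median of the 8 was -0.45. P2ry12 (0.23) and Olfml3 (0.27) went up without passing. None of the 8 passed for the interaction.

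The log2 ratio of C1qa to the mean log2 CPM of the microglia markers was 0.68 ± 0.16 (SD, n = 4) in Ch25h+/+ Tau-, 1.72 ± 0.19 in Ch25h+/+ Tau+, 0.52 ± 0.12 in Ch25h-/- Tau- and 0.50 ± 0.19 in Ch25h-/- Tau+ libraries. The 4 Ch25h+/+ Tau+ libraries lay between 1.52 and 1.91, above the other 12 libraries, which lay between 0.33 and 0.90. The difference with tau in Ch25h+/+ was 1.04 and that with Ch25h loss in Tau+ was -1.22, each at p = 0.0286 in the exact two-sided permutation test, the smallest p that 4 against 4 libraries allow. After a Benjamini-Hochberg adjustment over 12 such tests both were at 0.171, so none of the 12 passed. At this group size at least 7 of the 12 would have to reach the smallest p before any could pass.

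**Figure D3:**
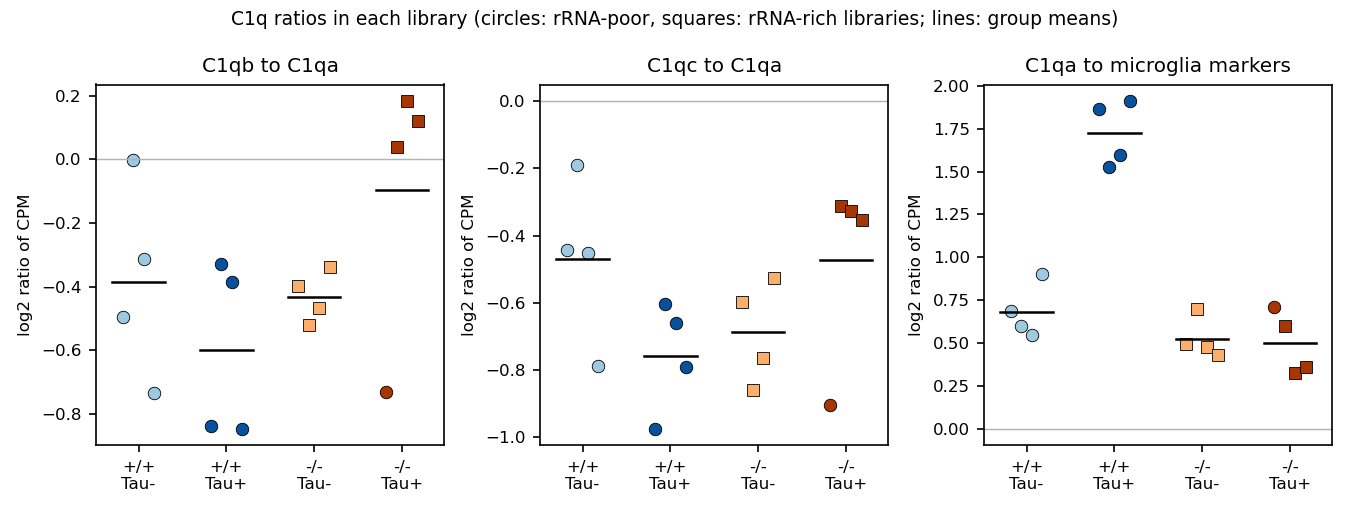
Log2 ratios of CPM in each library by group, for C1qb to C1qa, C1qc to C1qa and C1qa to the mean of 8 microglia markers; circles are rRNA-poor and squares rRNA-rich libraries, and lines are group means. C1qa to microglia markers is at 1.52 to 1.91 in the 4 Ch25h+/+ Tau+ libraries and at 0.33 to 0.90 in the other 12.

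Markers of other cells that express complement genes were read as values. Endothelial markers summed to 200 to 227 CPM in Ch25h+/+ Tau- and 227 to 279 CPM in Ch25h+/+ Tau+ libraries, without overlap by a narrow gap, and to 204 to 260 CPM in Ch25h-/- Tau+ libraries. All 6 were detected in every library, and 0 of the 6 passed with tau in Ch25h+/+ or with the loss of Ch25h in Tau+ mice. An unadjusted p under 0.05 in edgeR was found for 2 and 1 of the 6, beside 9.38% and 23.9% of all genes. Astrocyte markers summed to 3739 to 4068 CPM in Ch25h+/+ Tau- and 3367 to 5282 CPM in Ch25h+/+ Tau+ libraries, and 0 of 8 passed with tau in Ch25h+/+ (2 at an unadjusted p under 0.05 in edgeR, beside 9.38% of all genes). In Ch25h-/- Tau+ libraries they summed to 4114 to 4955 CPM. With the loss of Ch25h in Tau+ mice 1 of the 8 fell, Aldoc (log2 -0.33, adjusted p = 0.0315), 5 of the 8 had an unadjusted p under 0.05, beside 23.9% of all genes, and 3 were lower without overlap. Border macrophage markers summed to 5.34 to 13.3 CPM in Ch25h+/+ Tau-, 11.2 to 20.1 CPM in Ch25h+/+ Tau+ and 7.93 to 13.9 CPM in Ch25h-/- Tau+ libraries. Of these 6 markers Ms4a7 alone passed, rising with tau in Ch25h+/+ mice (log2 1.83, adjusted p = 0.00808) and falling with the loss of Ch25h in Tau+ mice (log2 -1.39, adjusted p = 0.0370). In edgeR 3 and 2 of the 6 had an unadjusted p under 0.05 in these comparisons, beside 9.38% and 23.9% of all genes. Ms4a7 and Aldoc are named after their values were seen. Markers of monocytes and neutrophils stayed at 0.453 to 2.53 CPM over all 16 libraries. Choroid plexus markers varied from 15.1 to 2753 CPM over the libraries and overlapped between all groups. The part of these cells in the results was not tested.

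The rest of the complement system was read from a list of 50 further genes in 5 roles, of which 33 passed the filter. With tau in Ch25h+/+ mice 4 of the 33 passed, all as higher, beside 1.56% of all genes tested. The median log2 fold change over the 33 was 0.09. With the loss of Ch25h in Tau+ mice the same 4 genes passed, all as lower, beside 3.55% of all genes tested, with a median of -0.05. Library class moves with that comparison, and values of these 4 genes with class as a covariate are not reported here. None of the 33 passed for tau in Ch25h-/- mice, for Ch25h loss in Tau- mice or for the interaction. At an unadjusted p under 0.05 in edgeR there were 2, 6 and 3 of the 33 in those 3 comparisons, beside 3.68%, 20.9% and 4.13% of all genes tested.

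Both of the integrin chains that passed belong to the complement receptors. Itgax, the alpha chain of complement receptor CR4 and a marker of disease-associated microglia, was at 0.0863 to 0.508 CPM in Ch25h+/+ Tau- libraries and at 3.20, 9.30, 10.1 and 21.9 CPM in Ch25h+/+ Tau+ libraries. It rose by 5.18 on the log2 scale (SE 0.65, adjusted p = 0.000185). In Ch25h-/- Tau+ libraries it was at 0.469, 2.73, 0.341 and 0.749 CPM, lower by a log2 fold change of -3.44 (SE 0.57, adjusted p = 0.00344). With tau in Ch25h-/- mice its log2 fold change was 2.61, the highest of the 6 receptors tested, and it did not pass. The 4 Ch25h+/+ Tau+ libraries ranked for Itgax as they did for C3, C4b and C3ar1. Itgb2, the beta chain shared by CR3 and CR4, was at 5.58 ± 0.723 CPM in Ch25h+/+ Tau-, 13.5 ± 4.08 in Ch25h+/+ Tau+, 6.23 ± 0.388 in Ch25h-/- Tau- and 5.60 ± 1.32 in Ch25h-/- Tau+ libraries (SD, n = 4 each). It rose with tau (log2 1.27, SE 0.19, adjusted p = 0.000868) and fell with the loss of Ch25h in Tau+ mice (log2 -1.28, SE 0.19, adjusted p = 0.00146). Itgam, the alpha chain of CR3, is named after its values were seen. It was at 3.50 to 5.78 CPM in Ch25h+/+ Tau-, 6.44 to 7.51 CPM in Ch25h+/+ Tau+ and 3.96 to 5.87 CPM in Ch25h-/- Tau+ libraries. The Ch25h+/+ Tau+ libraries thus lay above the Ch25h+/+ Tau- and the Ch25h-/- Tau+ libraries without overlap. The Ch25h-/- Tau- group is not part of that statement. Itgam did not pass with tau (log2 0.44, SE 0.18, adjusted p = 0.409) or with the loss of Ch25h in Tau+ mice (log2 -0.47, SE 0.18, adjusted p = 0.126).

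Of 16 regulators tested, Clu and Vtn passed. Clu, the secreted chaperone clusterin that binds terminal complement proteins, went from 784 ± 56.4 CPM to 1108 ± 148 CPM with tau in Ch25h+/+ mice (log2 0.50, SE 0.09, adjusted p = 0.00488). In Tau+ mice without Ch25h it was at 817 ± 66.2 CPM (log2 -0.44, SE 0.09, adjusted p = 0.0161). Vtn, vitronectin, which also blocks the terminal pathway, went from 79.7 ± 11.5 to 113 ± 20.6 CPM with tau (log2 0.51, SE 0.12, adjusted p = 0.0344), with overlapping groups. It was at 82.7 ± 2.26 CPM in Ch25h-/- Tau+ libraries (log2 -0.45, SE 0.12, adjusted p = 0.0457).

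The initiating proteases and lectins (5 tested), the convertase and alternative pathway genes (3 tested) and the terminal components (3 tested) gave no call in any of the 5 comparisons in edgeR, and none of these 11 genes had an unadjusted p under 0.05. C4a, the neighbouring copy of C4b, matters for reading C4b, since the 2 genes share stretches of 50 or more bases at 98% identity or more that cover 528 bases, 9.82% of the longest C4b transcript. Reads from those stretches could be split or dropped. C4a stood at 3.87 ± 0.838 CPM in Ch25h+/+ Tau- and 3.18 ± 0.410 CPM in Ch25h+/+ Tau+ libraries (SD, n = 4; log2 -0.28, adjusted p = 0.874, edgeR) and did not pass. No other gene of the 9 shared such a stretch with another gene. The filter removed 17 of the 50 genes, which had at most 16 counts in any library, among them the alternative pathway genes Cfb and Cfd and the terminal components C6, C8a, C8b and C9.

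**Figure D4:**
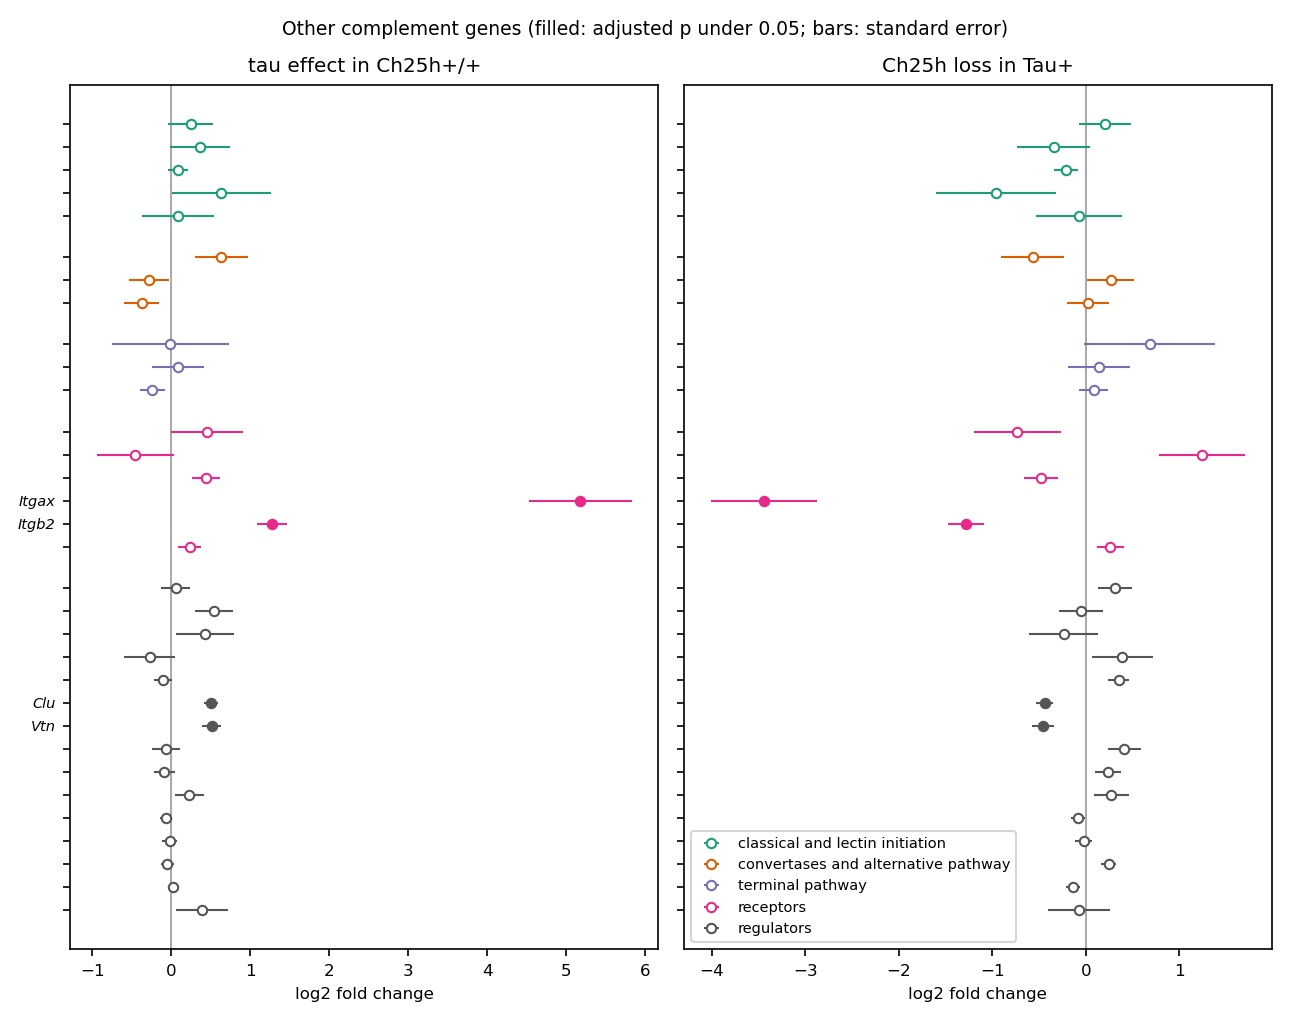
Log2 fold change of the other complement genes reported, with tau in Ch25h+/+ (left) and with Ch25h loss in Tau+ (right), coloured by role, 1 point per gene and panel; bars are standard errors, filled points have an adjusted p under 0.05, and only genes with a filled point are named. Itgax, Itgb2, Clu and Vtn are filled in both panels, higher on the left and lower on the right.

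The 9 genes differed in which other genes they resembled. Likeness was the mean absolute difference between 2 genes in log2(CPM + 0.5), each centred on its own mean, over the 16 libraries, and smaller values are more alike. Within the set the closest pair was C1qb and C1qc, at 0.124, while the nearest to C1qa was C1qc, at 0.196. Outside the set, C1qa was most like Tyrobp (0.143), Cyba (0.155) and Psmb8 (0.171). C1qb was most like H2-D1 (0.144), H2-K1 (0.162) and Ctsz (0.184), and C1qc like H2-D1 (0.152), Trem2 (0.154) and Ctsz (0.181). For comparison, the mean absolute deviation from the own mean was 0.557 for C1qa, 0.476 for C1qb and 0.491 for C1qc.

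C4b was most like Gfap (0.172), the intermediate filament gene of astrocytes, then Lyz2 (0.214) and Ly9 (0.294), against an own deviation of 0.883. C3ar1 was nearest to Ccl4 (0.167), Cd52 (0.18) and Myo1f (0.193), with an own deviation of 0.542. Serping1 was nearest to Ctsh (0.163), Aebp1 (0.168) and Fmod (0.175), with an own deviation of 0.458. No gene came close to C3, whose nearest were Cybb (0.501), Lgals3 (0.512) and Lyz2 (0.517) against an own deviation of 0.995. C1ra was nearest to Syde1 (0.140), Gm2981 (0.156) and Hmox1 (0.168), with an own deviation of 0.299. C5ar1 was nearest to Sox3 (0.228), Hhex (0.231) and Cbx7 (0.239), with an own deviation of 0.410. Both deviations lay below those of the other members on this scale. The 0.5 added to each CPM shrinks the deviation of C5ar1, which lay at 0.118 to 2.23 CPM over the libraries. Within Ch25h-/- Tau- libraries its highest CPM was 7.59-fold its lowest. All these values describe the same 16 libraries, which share depth and library class.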

How the data were processed

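Bulk RNA-seq was deposited as 1 table of whole-number counts per gene for 16 libraries, not normalized by the authors. Per the labels' protocols, column-purified total RNA went into a SMARTer mRNA library kit, and per the submitters' processing notes STAR 2.7 and the builds GRCm38 and mm10 were used. The counting program and the use of strand are not given in the sources used here. The labels do not state that each library is a separate animal, so p-values measure the spread between these libraries, which may be technical. Replicate numbers follow record order and carry no pairing. Replicate libraries differed by more than sampling noise (chi-square per degree of freedom 8.07 to 38.3).

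Genes were filtered with filterByExpr (17736 of 54532 left) and tested in 1 fit of all 16 libraries with edgeR 4.0.16 in R 4.3.3 (quasi-likelihood F test, two-sided, TMM, 1 mean per group), with Benjamini-Hochberg adjustment over all genes tested at 0.05. CPM was computed on TMM-scaled library sizes, and on total counts for library class (rRNA-rich at 1000 CPM or more of CT010467.1). Ratios used log2(CPM + 0.5). Standard errors were taken from the F statistic. On data simulated for tau in Ch25h+/+ (17736 genes), 69% of 2-fold and 98% of 4-fold changes were recovered, with 12 false calls. Positions and lengths came from GENCODE M21 (GRCm38). Intervals are 95% intervals from the t distribution on the degrees of freedom of the F test.

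The members, gene lists and tests were chosen with earlier results of these data known. All 9 members are named, with up to 3 other complement genes per role and comparison that passed, by smallest p, and the 3 genes of most alike profile per member. Alternatives were other size factors, no filter, DESeq2 1.42.0, a filter at 50 counts on average, limma-voom (limma 3.58.1), only the 8 libraries compared, library class as a covariate, GC offsets and leaving out each library. The fit on rRNA-poor libraries alone was added after seeing the data. Values of some single genes are not reported here.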

Additional observations from a re-analysis of the deposited data

Results flagged for a closer look

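Dixon's test at the 95% level was applied to the 4 libraries of each group for each of the 9 genes, 36 groups in all, and marked 3 of them, where chance marks about 1 in 20. C1qc was at 37.8 CPM in Ch25h-/- Tau+ replicate 2, with the other 3 libraries at 24.8 to 26.9 CPM. C1ra was at 6.79 CPM in Ch25h+/+ Tau+ replicate 3, with the others at 5.17 to 5.18 CPM. Serping1 was at 13.7 CPM in Ch25h-/- Tau- replicate 1, with the others at 5.72 to 6.30 CPM. The same library had the highest summed fibroblast markers (157 CPM) and border macrophage markers (15.3 CPM) of its group, and the highest level there of C2 (2.47 CPM), a gene picked after its values were seen. The part of those cells in the Serping1 value was not tested. The tau difference of C1qa differed between the Ch25h genotypes by the interaction test, at -1.26 on the log2 scale (adjusted p = 0.0222, edgeR). That call was kept in 10 of the 16 fits that left out a library.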

How the results depend on the processing

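For tau in Ch25h+/+, each alternative that kept all libraries called 7 of the 9 genes, and leaving out a library gave 6 to 7. For tau in Ch25h-/- every alternative called 0. For Ch25h loss in Tau+, the covariate for library class left 3 calls and the rRNA-poor libraries alone 2, with only 1 Ch25h-/- library in that fit, while other alternatives gave 6 or 7 and each leave-one-out fit 6. For Ch25h loss in Tau-, no filter, DESeq2, limma-voom and the fit of 8 libraries each called 1 gene, C1qc, and leave-one-out fits 0 to 1. For the interaction, no filter gave 5, DESeq2 3 and limma-voom 2 calls, and leave-one-out fits 0 to 4. Over all genes tested, Ch25h loss in Tau+ had 629 calls in edgeR, 10 with the class covariate, 204 with GC offsets, 119 in the fit of 8 libraries and 1494 in DESeq2. Of 1084 alternative values for single genes, 1026 kept direction and side of the threshold, 16 lost a call, 20 gained one and 22 changed sign. None of the values that changed sign had passed the threshold, and the cause was not tested. With the class covariate, C5ar1 with tau in Ch25h-/- was -0.16. For that comparison the covariate amounts to leaving out Ch25h-/- Tau+ replicate 1. For Ch25h loss in Tau-, the same fit gave 0.0221 for C1qa, -0.0473 for Serping1, -0.33 for C3ar1 and 0.25 for C5ar1. Its class term comes only from that library against the rest of its group. In limma-voom, C4b was -0.0903 and Serping1 -0.0262 for Ch25h loss in Tau-, where C3ar1 was -0.0054 with no filter and -0.15 with GC offsets. Leaving out each library moved C5ar1 from -0.16 to 0.68 for tau in Ch25h-/-. It moved C4b from -0.15 to 0.22, Serping1 from -0.23 to 0.31 and C3ar1 from -0.0855 to 0.102 for Ch25h loss in Tau-. It moved C1ra from -0.0634 to 0.393 and C5ar1 from -0.70 to 0.13 for the interaction. The filter at a mean of 50 counts left C5ar1 out. Depth limits C3 and C5ar1 most, with 2 to 19 counts of C3 per Ch25h+/+ Tau- library and 2 to 16 counts of C5ar1 per Ch25h-/- Tau- library.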
